A study of Mus musculus with 2 samples.

Results

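Many miRNA hairpins lie inside introns of protein-coding genes, and 10 such miRNAs were followed here in the newborn mouse forebrain. They are Mir149, Mir342, Mir139, Mir151, Mir140, Mir330, Mir874, Mir338, Mir488 and Mir326, chosen by name as miRNAs of single copy within a host gene. The choice was made with their levels in these data known. All 10 had a row in the deposited count tables, out of 1973 rows in all. The libraries are microRNA-seq libraries of total RNA from single forebrains of B6NCrl mice at postnatal day 0, with pup 3 and pup 1 as the 2 replicates of 1 group. No treatment, genotype or other tissue was compared, the sex of the pups was not collected, and both pups carry the same donor entry. The results are therefore the level of each miRNA, its spread over 2 animals, and the differences between these libraries.

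An intronic miRNA is cut out of the primary transcript of its host by the Drosha complex, usually before or while the intron is spliced, and Dicer then releases the mature strands from the hairpin. Host and miRNA can thus be made from the same transcript, although some intronic miRNAs have a promoter of their own. A mature strand pairs with target messenger RNAs chiefly through its seed, bases 2 to 8. The RNA of the hosts was not measured in these libraries.

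Mature strands, 1 for each of 8 hairpins, are printed to show the seeds, including the one that 2 of the miRNAs share. The tables count each hairpin as a whole, so which strand gave the reads is not recorded. Sequences are from RefSeq on GRCm38.p6, written 5′ to 3′ with the seed in capitals. RefSeq entries for mature strands were matched for 8 of the 10 miRNAs, 15 strands in all.
mmu-miR-149-5p: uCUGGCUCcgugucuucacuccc
mmu-miR-342-3p: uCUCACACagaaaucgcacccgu
mmu-miR-139-5p: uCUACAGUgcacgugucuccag
mmu-miR-140-3p: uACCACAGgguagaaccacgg
mmu-miR-338-3p: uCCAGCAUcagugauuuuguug
mmu-miR-488-3p: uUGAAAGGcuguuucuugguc
mmu-miR-330-5p: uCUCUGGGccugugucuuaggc
mmu-miR-326-3p: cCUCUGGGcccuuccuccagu

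The 15 strands carried 14 different seeds. The seed CUCUGGG was the only one found in 2 of the miRNAs, in miR-330-5p and miR-326-3p, the last pair shown above. Their hairpins lie in different hosts on chromosome 7. Of the 15 strands, 10 shared their seed with no other mature strand among the 1738 in the table. No strand was contained in another hairpin, and none of the 10 hairpins shared a run of 20 nt with another one. Reads of these miRNAs were therefore not divided among annotated copies that match over such a run.

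Each hairpin lay on the strand of its host and within an intron of the principal host transcript, as annotated in GENCODE M21 on GRCm38. Mir149 (ENSMUSG00000065470.1, chromosome 1, 92850378 to 92850443, plus strand) lies in intron 1 of Gpc1, which encodes glypican 1, a heparan sulfate proteoglycan of the cell surface. Mir342 (ENSMUSG00000065436.1, chromosome 12, 108658620 to 108658718, plus strand) lies in intron 3 of Evl, a regulator of actin filament growth. Mir139 (ENSMUSG00000065446.1, chromosome 7, 101475376 to 101475443, plus strand) lies in intron 2 of Pde2a, a phosphodiesterase that breaks down cyclic nucleotides, and also within the overlapping protein-coding gene model Gm45837. Mir151 (ENSMUSG00000065612.1, chromosome 15, 73254815 to 73254882, minus strand) lies in intron 22 of Ptk2, the gene of focal adhesion kinase. Mir140 (ENSMUSG00000065439.1, chromosome 8, 107551244 to 107551313, plus strand) lies in intron 16 of the ubiquitin ligase gene Wwp2 and is best known from cartilage.

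The hosts of the other 5 miRNAs are of varied kinds. Mir330 (ENSMUSG00000065543.1, chromosome 7, 19181465 to 19181562, plus strand) lies in intron 1 of Eml2, a microtubule-binding protein, and this intron of 0.485 kb is the shortest of those that hold the 10 hairpins. Mir874 (ENSMUSG00000077962.1, chromosome 13, 58023125 to 58023200, minus strand) lies in intron 8 of Klhl3, an adaptor of a ubiquitin ligase. Mir338 (ENSMUSG00000065600.1, chromosome 11, 120014765 to 120014862, minus strand) lies in intron 7 of Aatk, a kinase gene, and promotes the maturation of oligodendrocytes, the myelin-forming cells. Mir488 (ENSMUSG00000070103.2, chromosome 1, 158505625 to 158505733, plus strand) lies in intron 5 of Astn1, which encodes astrotactin 1, a protein that neurons use to migrate along glia. Mir326 (ENSMUSG00000065571.1, chromosome 7, 99552269 to 99552363, plus strand) lies in intron 1 of Arrb1, the gene of beta-arrestin 1, which ends signalling by G protein-coupled receptors.

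**Figure D1:**
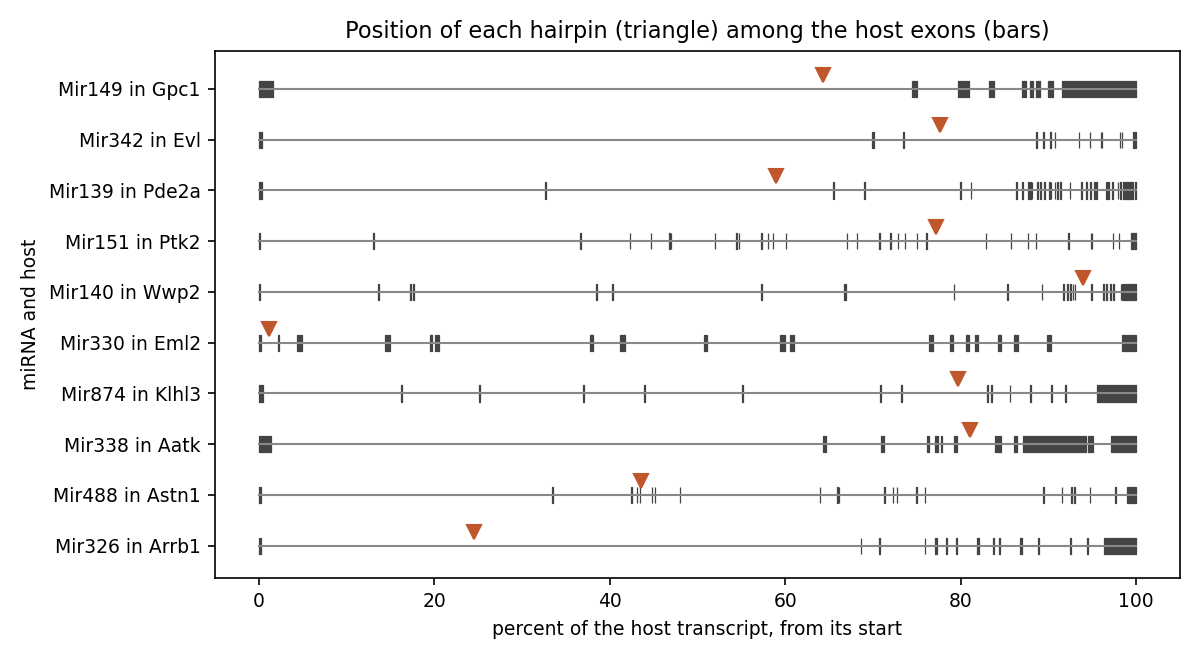
Position of each hairpin (triangle) along its host transcript, in percent of the transcript length from its start, with exons as bars. Of the 10 hairpins, 7 lie past the middle of the transcript, Mir330 lies at 1.17% and Mir140 at 94.0%.

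The hairpins varied in where they lie within the host and shared few sequence features beyond it. In the principal transcript, Mir330 starts 0.295 kb from the transcript start and Mir151 starts 168 kb from it. Mir488 lies 155 bp beyond the exon before it, while Mir326 lies 16470 bp beyond its own. An exon of 1 of 8 Eml2 transcripts overlaps Mir330, and an exon of 1 of 11 Wwp2 transcripts, a retained intron, overlaps Mir140. Hairpin length ran from 66 to 109 nt. The GC content ran from 42.2% (Mir488) to 68.4% (Mir874), with a median of 57.8%, beside 50.5% over all 331 detected loci. Folding energy, computed with RNAfold, ran from −50.8 kcal/mol (Mir326) to −35.6 kcal/mol (Mir139), with a median of −40.3 kcal/mol beside −37.3 kcal/mol over the detected loci.

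Together the 10 miRNAs held 4.91% of the counts of pup 3 and 5.37% of those of pup 1, which is 5.14% ± 0.320 (SD, n = 2). Here a share is a percent of the reads on the gene strand of all miRNA loci, 2427066 reads in pup 3 and 2742746 in pup 1. Reads that map to several places, 44.1% of all reads in pup 3 and 42.2% in pup 1, are in no share. Loci with copies elsewhere can thus be undercounted. This can raise the shares and ranks of single-copy loci such as the 10 in any comparison with all loci. All 10 reached 10 counts in each pup and so counted as detected, as did 16.8% of all rows. The 10 were chosen with their levels known, so this contrast was not tested. The 5 most abundant of the 10 miRNAs made up 96.4% of their reads in pup 3 and 95.8% in pup 1. Counting intervals below are exact Clopper-Pearson intervals at 95% and cover only the counting error of reads. PCR copies of 1 molecule count as separate reads, so the intervals can be too narrow for a count of molecules.

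Mir149 was the highest of the 10, at rank 6 of all loci. It had 62162 counts in pup 3 and 74785 in pup 1. These are shares of 2.56% in pup 3 (2.54 to 2.58%) and 2.73% in pup 1 (2.71 to 2.75%), with a mean of 2.64% ± 0.117 (SD, n = 2). Mir149 alone thus gave 52.1% of the reads of the 10 miRNAs in pup 3 and 50.8% in pup 1. Mir100 stood next above it, with 3.49% in pup 3 and 2.97% in pup 1, and Mir487b next below, with 2.16% and 3.11%. The values of Mir487b lay on both sides of those of Mir149, so the order of these 2 loci was not resolved with 2 animals.

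Mir342 and Mir139 followed. Mir342 had 21502 counts in pup 3 and 28134 in pup 1, shares of 0.886% and 1.03% (mean 0.956% ± 0.0989), at rank 20. Mir26b, in its host Ctdsp1, stood next above it with 0.838% in pup 3 and 1.08% in pup 1, a range that holds both values of Mir342. Mir139 had 15242 counts in pup 3 and 18093 in pup 1, shares of 0.628% and 0.660% (mean 0.644% ± 0.0224), at rank 30. With library totals, the values of Mir139 in the 2 pups lay closer together than those of any other of the 10 miRNAs, with a coefficient of variation of 3.48%. With DESeq2 size factors, which set the typical locus equal between libraries, they lay farthest apart, at a log2 ratio of 0.24. Its neighbours in level, Mir30a above (0.605% in pup 3 and 0.747% in pup 1) and Mir322 below (0.537% and 0.669%), both spanned its range.

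Mir151 and Mir140 were the last 2 above 0.1% in both pups. Mir151 had 8825 counts in pup 3 and 10805 in pup 1, shares of 0.364% and 0.394% (mean 0.379% ± 0.0215). It stood beside Mir21a, in its host Vmp1, which had 0.355% in pup 3 and 0.388% in pup 1. Mir140 had 7190 counts in pup 3 and 9257 in pup 1, shares of 0.296% and 0.338% (mean 0.317% ± 0.0292). Its neighbour Mir153, in Ptprn2, had a similar mean but 0.224% in pup 3 and 0.408% in pup 1. The 2 ranges did not overlap: the lower value of Mir151 lay above the higher value of Mir140. A share of at least 0.1% in both pups was reached by 5 of the 10 miRNAs, beside 4.76% of all 1973 rows. Of those rows, 1303 had no gene-strand count in either pup. Since the 10 were chosen with their levels known, this contrast reflects the choice and was not tested.

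**Figure D2:**
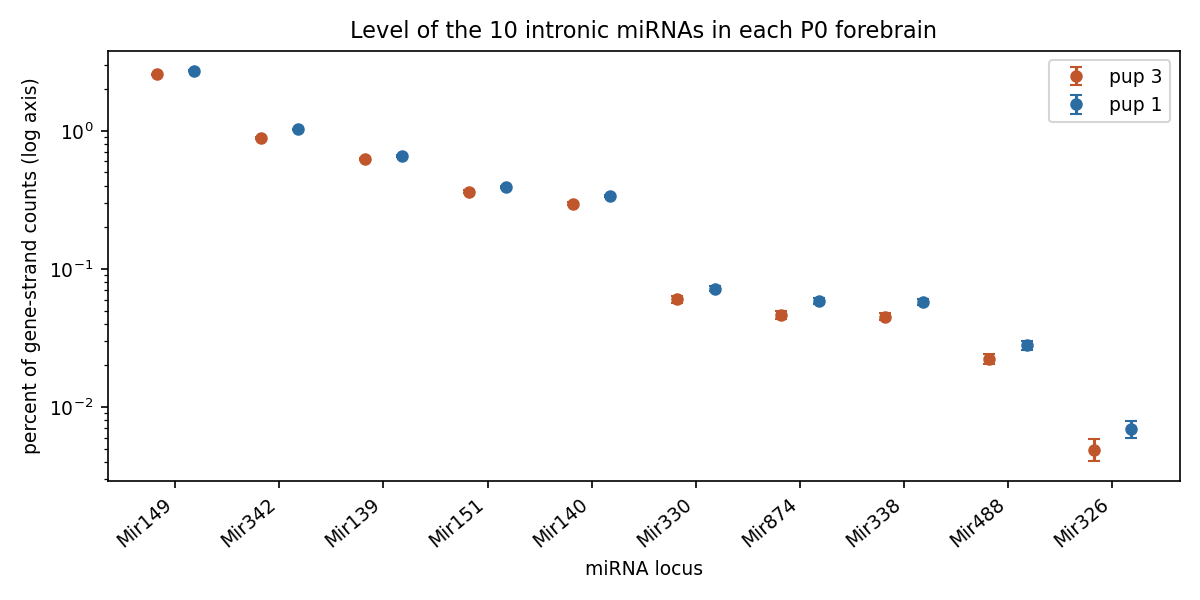
Share of the gene-strand counts (percent, log axis) of each of the 10 miRNAs in pup 3 and pup 1, with exact 95% counting intervals. The values run from 2.73% for Mir149 in pup 1 to 0.00490% for Mir326 in pup 3, with a gap between Mir140 and Mir330.

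A gap separated these 5 from the others: Mir140 stood 4.93-fold above Mir330 in pup 3 and 4.70-fold in pup 1. Mir330 had 1459 counts in pup 3 and 1970 in pup 1, or 601 and 718 CPM (counts per 1000000 gene-strand counts), with a mean of 660 ± 82.8 CPM (SD, n = 2). Mir874 had 1126 counts in pup 3 and 1609 in pup 1, or 464 and 587 CPM (mean 525 ± 86.8). Mir338, the oligodendrocyte miRNA, had 1094 counts in pup 3 and 1573 in pup 1, or 451 and 574 CPM (mean 512 ± 86.8). Mir874 and Mir338 stood at ranks 124 and 125, and their ranges overlapped almost fully, so they could not be ordered.

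Mir488 and Mir326 were the lowest. Mir488, in the neuronal gene Astn1, had 539 counts in pup 3 and 768 in pup 1, or 222 and 280 CPM (mean 251 ± 41.0), at rank 163. Mir148b, in Copz1, stood next above it with 254 ± 38.8 CPM. Mir326 had 119 counts in pup 3 and 189 in pup 1, or 49.0 and 68.9 CPM (mean 59.0 ± 14.1), at rank 229. Its neighbour Mir377 had 56.6 ± 15.4 CPM. Mir149 exceeded Mir326 by 522-fold in pup 3 and 396-fold in pup 1. The 10 miRNAs had the same order of level in both pups, and the ranges of neighbours in that order overlapped only for Mir874 and Mir338. Counts were not divided by length, since the mature strands shown differ by at most a few bases. Ligation and amplification favour some small RNAs, so an order between loci is an order of reads and may differ from one of molecules.

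The miRNAs with the shared seed CUCUGGG, Mir330 and Mir326, differed widely in level. Mir330 had 12.3 times the counts of Mir326 in pup 3 and 10.4 times in pup 1. Other loci with the seed of any of the 15 strands had few counts or none. Mir6240, with the seed of miR-330-3p, had 4 counts in pup 3 and 15 in pup 1. Mir1943, with the seed of miR-149-3p, had 5 in pup 3 and 6 in pup 1. Mir7016, with that seed too, and Mir497b, with the seed of miR-140-3p, each had 0 counts in pup 3 and 1 in pup 1. Gm27775 and Gm27740, the other loci with the seed of miR-149-3p, had 0 counts in both pups. These loci carry the same mature strand, and reads that map to both are in no share. Their counts of 0 thus set no limit on their level. At a locus whose sequence is its own, a count of 0 allows up to 1.24 CPM in pup 3 and 1.09 CPM in pup 1 (3 counts).

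No read was counted on the strand opposite to any of the 10 hairpins, in either pup. Set against the 119258 counts of the 10 miRNAs in pup 3 and 147183 in pup 1, 0 reads allow an opposite-strand share of up to 0.00252% in pup 3 and 0.00204% in pup 1. This holds for most miRNAs: of the 331 detected loci, 300 (90.6%) also had none. The measurement matters for Mir338, since the hairpin of Mir3065 overlaps that of Mir338 by 87 bp on the other strand. Mir3065 had no row of its own. Its mature strand, shown with the seed in capitals for comparison with miR-338-3p above, can pair with miR-338-3p over a run of 21 nt.
mmu-miR-3065-5p: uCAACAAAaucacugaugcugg
With 0 opposite reads, counts from the Mir3065 strand at this locus could reach at most 0.274% of the Mir338 counts in pup 3 and 0.191% in pup 1.

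The 10 miRNAs were set beside other miRNAs that stand alone in a protein-coding gene. These are loci on the strand of the host, with no other miRNA within 10 kb on that strand and no run of 20 nt shared with another hairpin. There were 499 besides the 10, some of which overlap exons. They held 19.2% of the counts in pup 3 and 20.7% in pup 1, and 87 of them (17.4%) were detected. Mirlet7g, in Wdr82, led with 6.76% in pup 3 and 6.50% in pup 1. Mir126a, in Egfl7, a miRNA of vessel endothelium, had 3.56% in pup 3 and 3.05% in pup 1. Mir149 stood at place 3 of all such loci by mean share. Mir335, in Mest, at place 4, had 2.19% in pup 3 and 3.00% in pup 1, on both sides of Mir149, so these 2 could not be ordered. Mir342, Mir139, Mir151 and Mir140 stood at places 7, 9, 11 and 15 of this class, and Mir326 at place 60. The median level of the 10 was 1914 CPM, beside 119 CPM over the 87 detected loci of the class and 232 CPM over all detected loci. The 10 were chosen with their levels known, so this difference in level was not tested.

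**Figure D3:**
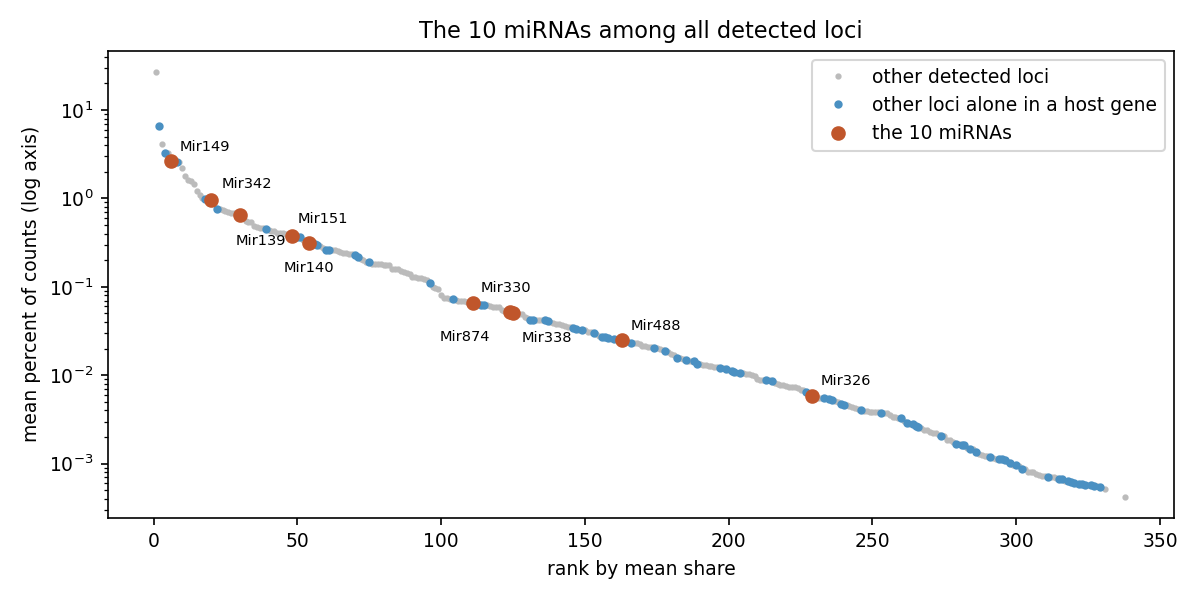
Mean share over both pups (percent, log axis) against rank for the detected loci, with the 10 miRNAs named and other loci that stand alone in a host gene marked. The 10 miRNAs run from rank 6 (Mir149) to rank 229 (Mir326).

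The pups differed by little at all 10 loci. They were compared by a two-sided Fisher's exact test of each locus against the rest of its library, with p-values adjusted after Benjamini and Hochberg over all 400 loci whose counts summed to 10 or more. Since 1 library stands on each side, the test compares the libraries and not conditions. Relative to library totals, all 10 miRNAs were lower in pup 3, by 1.05-fold (Mir139) to 1.41-fold (Mir326). Of all 400 loci tested, 56.5% were called, 46.2% lower in pup 3 and 10.2% higher, and 76.5% had a ratio below 0. The log2 ratios of pup 3 over pup 1 of the 10 had a median of −0.23, beside −0.31 over all tested loci. Every one of the 10 lay within 1.5-fold, as did 74.0% of the detected loci. These 2 sets were not matched for level, with a median of 1914 CPM over the 10 and 232 CPM over the detected loci. Counting error is larger at low counts.

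The direction of the abundant miRNAs turned with the scale. DESeq2 size factors moved the median of all tested loci from −0.31 to −0.02. On that scale 5 of the 10 miRNAs were higher in pup 3 and none lower (exact binomial test, adjusted over the 400 loci), beside 45.2% of all loci called, 24.5% higher and 20.8% lower. With TMM-adjusted library sizes the result was again 5 higher and none lower, beside 46.5% called, 20.5% higher and 26.0% lower. The 5 are Mir149, Mir342, Mir139, Mir151 and Mir140, all above 0.1% of the counts. Of the 96 detected loci with a mean share of at least 0.1%, 59.4% were called higher with size factors, and of the 235 below it 16.2%. An exact test of counts calls small ratios more readily where counts are high, so these percents mix depth with direction. The median log2 ratios with size factors were 0.11 over the 96 loci and −0.05 over the 235.

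Among the abundant miRNAs, Mir149 had a log2 ratio of −0.09 with totals (adjusted Fisher's exact p = 7.35e-31) and 0.22 with size factors (adjusted exact p = 2.15e-176). Mir342 had −0.21 with totals (adjusted Fisher's exact p = 7.89e-59) and 0.10 with size factors, and with totals its 95% counting interval of −0.24 to −0.19 did not meet that of Mir149, −0.11 to −0.07. Mir139 had −0.07 with totals (adjusted Fisher's exact p = 1.76e-05) and 0.24 with size factors. Without the most abundant locus in the totals, Mir139 had −0.01 and no longer passed (adjusted Fisher's exact p = 0.487). Mir151 had −0.12 with totals and 0.20 with size factors, and Mir140 −0.19 and 0.13. The test takes in counting error alone, and variation between animals is not part of it.

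The 5 less abundant miRNAs were called lower with totals and passed on neither other scale. Mir330 had a log2 ratio of −0.26 with totals and 0.06 with size factors (adjusted exact p = 0.413). Mir874 had −0.34 with totals and −0.02 with size factors, Mir338 −0.35 and −0.03, and Mir488 −0.33 and −0.02. Relative to the median of all tested loci, the ratios with totals were −0.02 for Mir874, −0.03 for Mir338 and −0.02 for Mir488. Mir326 had −0.48 with totals (adjusted Fisher's exact p = 0.00711) and −0.17 with size factors (adjusted exact p = 0.455). Its 95% counting interval with totals, −0.83 to −0.15, was the widest of the 10. It held the median of all tested loci, as did the intervals of Mir330, Mir874, Mir338 and Mir488.

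**Figure D4:**
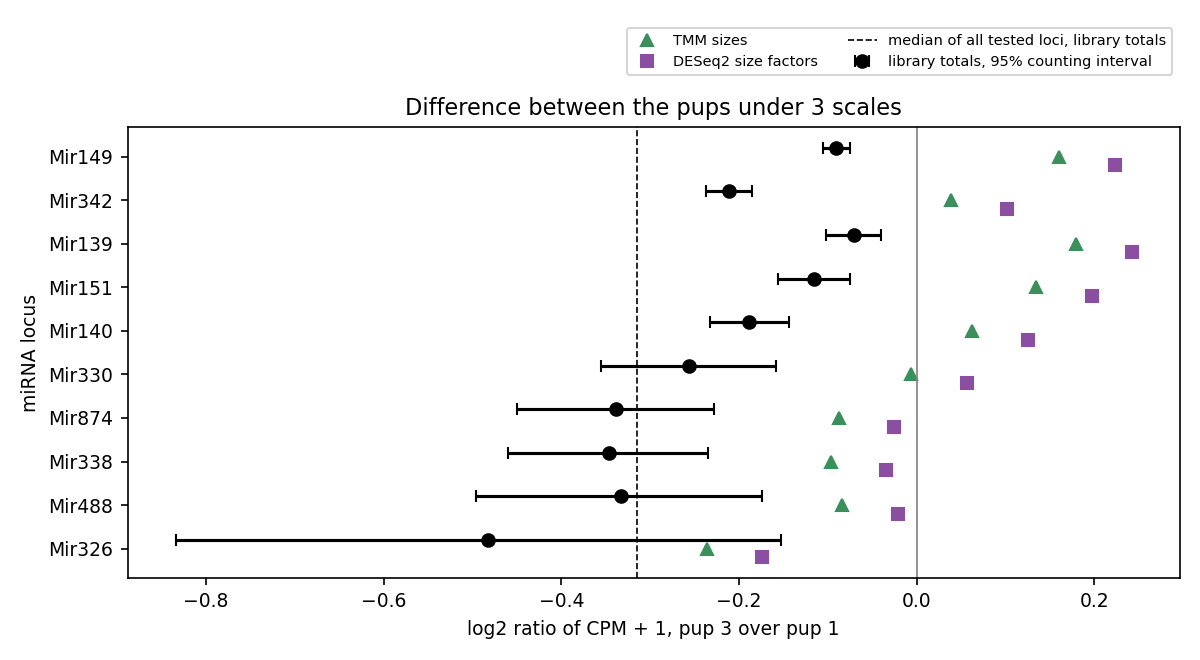
Log2 ratio of CPM + 1 in pup 3 over pup 1 for each of the 10 miRNAs, with library totals (points with 95% counting intervals), TMM sizes and DESeq2 size factors, and the median of all tested loci with totals as a dashed line at −0.31. All 10 lie below 0 with totals, while Mir149, Mir342, Mir139, Mir151 and Mir140 lie above 0 on the other scales.

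With library totals, the spread over the pups was smaller for the abundant miRNAs, and on the other scales this did not hold. The coefficient of variation ran from 3.48% (Mir139) to 23.8% (Mir326), with a median of 11.4% over the 10, beside 18.1% over all detected loci. The detected loci have a lower median level than the 10, so these medians are not matched for level. Over the 400 tested loci, the common dispersion that edgeR estimated corresponds to a coefficient of variation of 0.215 between animals. That estimate used TMM-adjusted library sizes and leaves out counting error, so it is not a like measure to the values by locus. The values by locus are of 2 animals on the scale of totals and take in counting error. Mir149 had 4.42%, Mir151 5.66%, Mir140 9.21% and Mir342 10.3%. The other 5 started at 12.6% (Mir330). With size factors, Mir149, Mir139 and Mir151 stood farther from 0 (log2 ratios of 0.22, 0.24 and 0.20) than Mir330, Mir874, Mir338 and Mir488 (0.06, −0.02, −0.03 and −0.02), while Mir326 had −0.17.

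Other miRNAs of host genes gave both directions. Of 131 tested loci of the class alone in a host gene, 7 were higher and 49 (37.4%) lower in pup 3 with totals. Their median log2 ratio was −0.31. Over all 400 tested loci, 10.2% were higher and 46.2% lower with totals, at a median of −0.31. Size factors gave 23 higher and 22 lower in the class, beside 24.5% higher and 20.8% lower over all tested loci. A list of other miRNAs known to lie in host genes, such as Mir26b and Mir744, had a row for 33 of 35 names, all 33 tested. Of these, 6 were higher and 20 (60.6%) lower with totals, at a median of −0.37, while size factors gave 8 higher and 10 lower.

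Markers of other cell types were read in the same way, and their calls varied by list and by scale. The calls below stand beside 46.2% lower and 10.2% higher over all 400 tested loci with totals. With size factors, 20.8% of all tested loci were lower and 24.5% higher. The oligodendrocyte list, Mir219a-1, Mir219a-2 and Mir338 itself, summed to 0.0550% in pup 3 and 0.0729% in pup 1, of which Mir338 gave 82.0% and 78.7%. The Mir219a loci are numbered as copies, and any read that matched both was left uncounted, while Mir338 is of single copy. The sum of the list can thus be too low and the part given by Mir338 too high. Mir219a-1 had 186 counts in pup 3 and 348 in pup 1 and was lower with totals (−0.72, adjusted Fisher's exact p = 5.49e-08) and with size factors (−0.41). Mir219a-2 had 54 counts in pup 3 and 79 in pup 1 and did not pass. Neuron markers summed to 4.07% in pup 3 and 4.50% in pup 1, most of it Mir137. The same limit applies to the numbered copies of Mir124a and Mir128, so the part given by Mir137 can be too high as well. With totals Mir137 (−0.28) and Mir132 (−0.23) were lower, while Mir128-1 (0.07) and Mir128-2 (0.16) were higher. Mir124a-1 had 21 counts in pup 3 and 15 in pup 1, Mir124a-2 had 4 and 5, and Mir124a-3 had 2 and 3. Of 5 tested neuron markers, 2 were higher and 2 lower with totals, and 4 higher and none lower with size factors. Vessel markers summed to 3.94% in pup 3 and 3.50% in pup 1, most of it Mir126a, which was higher (0.22), while Mir143 (−0.22) and Mir145a (−0.29) were lower with totals. With size factors 2 of these 3 were higher and none lower. Multiciliated cell markers summed to 0.493% in pup 3 and 0.820% in pup 1, with 3 of 5 lower on either scale. Choroid plexus markers summed to 0.228% in pup 3 and 0.294% in pup 1, with 1 of 2 lower with totals and none with size factors. Markers of microglia and white blood cells, 3 of 4 of which matched a row by name, summed to 0.0387% in pup 3 and 0.0395% in pup 1. Of these 3, 1 was lower on either scale and 2 were higher with size factors. In pup 3 and pup 1, red blood cell markers (1 of 3 lower with totals and none with size factors) summed to 0.00713% and 0.00882%. The liver marker Mir122 had 0.00630% in pup 3 and 0.00481% in pup 1 and was higher on either scale (0.38 with totals). Hindbrain and spinal cord markers summed to 0.0268% in pup 3 and 0.0236% in pup 1. Of 4 tested, 2 were higher and 0 lower on either scale. These were Mir10b (0.33 with totals) and Mir196b (1.64), the latter with 19 counts in pup 3 and 5 in pup 1. Muscle markers summed to 0.000453% in pup 3 and 0.000729% in pup 1, with 3 of 4 loci at 0 and the tested locus not passed. The loci at 0 were Mir1a-1, Mir133a-1 and Mir133a-2. Where reads are shared with another copy, a count of 0 sets no limit on the level. In bulk tissue, fewer cells of a type and less miRNA per cell cannot be told apart. The part of cell composition in the differences at the 10 loci was not tested.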

How the data were processed

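MicroRNA-seq libraries of 2 forebrains (pup 3 and pup 1) were read from 1 table each. The authors deposited raw read counts per miRNA gene, with no normalization, on assembly mm10 and annotation release M4, per the text deposited with the files. The aligner and the counter were not given in the sources used here. In each table, 3 columns of counts were read from layout and values as both strands, the gene strand and the opposite strand, and the gene strand was used. The 4 rows that name no gene stayed out of library sizes; unmapped reads were 12.3% of all reads in pup 3 and 13.4% in pup 1, reads outside loci 2.27% and 3.23%, and ambiguous reads 0. Nothing beyond separate pups is stated about preparation, so p-values measure the difference between these libraries.

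Of 1973 rows, 1894 matched the GENCODE M21 annotation of GRCm38, the assembly of mm10. The host is the protein-coding gene that contains the hairpin on its strand, and the principal transcript its APPRIS principal one, the longest where there are several. CPM are counts per 1000000 gene-strand counts, and log2 ratios use CPM + 1. The counting intervals of these ratios were computed from the counts without the added 1 CPM. Fisher's exact test was run where the counts of both pups summed to 10 or more, with adjusted p (Benjamini-Hochberg) under 0.05 as the call. The quasi-likelihood test of edgeR needs a contrast, which 1 group lacks. From edgeR came only the TMM sizes and the common dispersion of the tested loci, and from DESeq2 only the size factors. The members and lists were chosen with earlier results of these data known. Named loci are the 10 members, loci within 10 kb of them, loci of shared seed, neighbours in level, and the 3 highest other loci of the class. Alternatives were the strand column, denominators, scalings, filters, pseudocounts, the class rule and leaving out a replicate. Versions were RNAfold 2.7.2, DESeq2 1.42.0, edgeR 4.0.16, R 4.3.3, scipy 1.17.1, pandas 2.3.3, numpy 2.4.6, matplotlib 3.10.9 and Python 3.11.15.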

Additional observations from a re-analysis of the deposited data

How the results depend on the processing

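The direction between the pups depended on the scale. With TMM-adjusted library sizes 5 of the 10 miRNAs were called in place of 10, 0 lower and 5 higher, and with DESeq2 size factors likewise 5 called, 0 lower and 5 higher. Log2 ratios that turned positive with TMM sizes were those of Mir149 (0.16), Mir342 (0.039), Mir139 (0.18), Mir151 (0.14) and Mir140 (0.063). With DESeq2 size factors they were Mir149 (0.22), Mir342 (0.10), Mir139 (0.24), Mir151 (0.20), Mir330 (0.057) and Mir140 (0.13). The cause was not tested. Filters of 1 or 100 summed counts, both strands together and pseudocounts of 0.1 or 10 CPM kept all 10 calls and directions. The summed share of the 10 was 7.03% without the most abundant locus in the totals and 2.12% of all reads, by construction of the denominators, and ran from 4.91% to 5.37% when a replicate was left out. Of the other loci alone in a host gene, 56 were called, and 45 to 64 under the alternatives. No paired analysis was possible because there is 1 group. At 119 and 189 counts, Mir326 is the member whose ratio depth limits most.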
